A study of Brachypodium distachyon with 35 samples.

Results

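BdbZIP88 (bradi4g36587) is a basic leucine zipper (bZIP) gene of the grass Brachypodium distachyon, 1 of 96 BdbZIP genes measured by quantitative real-time PCR (qPCR). It was chosen from its measured values, as the gene with the lowest –ΔΔCT against the control CK1 in root and in spikelet and with low values under heavy metals against the control CK3. Those values are therefore given as a description, with no test. The gene lies on chromosome 4, from 41762220 to 41762920, in coordinates whose genome build is not named in the sources used here. Its predicted protein has 186 residues, with the bZIP domain at residues 117 to 169. The gene has 1 intron and belongs to intron pattern h of the family.

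bZIP transcription factors bind DNA through a basic region and pair with each other through a leucine zipper, a helix with leucines at regular steps. Plant bZIP proteins are known for roles in abscisic acid signalling, stress responses, defence, seed maturation and flowering. Synteny places BdbZIP88 beside AtbZIP14 of Arabidopsis, which is FD. In Arabidopsis FD acts at the shoot apex with the mobile protein FT in the transition to flowering. Whether BdbZIP88 has that role in Brachypodium was not tested by these data.

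The series holds 35 samples, 1 per condition, and 34 were used. They are 3 untreated seedling controls (CK1, CK2 and CK3), 4 organs (root, stem, leaf and early spikelet) and 27 treated seedling samples. All plants were of the line Bd21-3 and were grown on agar. The labels give an age of 20 days, or 40 days for the spikelet, while the growth notes start the treatments at 2 weeks. The class of environmental factors held seedlings kept at 4 °C (cold) or 45 °C (heat), or given H2O2 (10 mM), NaCl (200 mM) or the osmotic agent polyethylene glycol (PEG, 20%), each sampled after 1 h and 6 h. The metal salts, sampled after 6 h and 24 h, were CuSO4 (0.05 mM), ZnSO4 (0.5 mM), MnCl2 (1.0 mM), CdCl2 (0.07 mM) and PbCl2 (0.75 mM). The hormones, sampled after 1 h and 6 h, were salicylic acid (SA, 1 mM), the cytokinin 6-benzyladenine (6-BA, 20 µM), abscisic acid (ABA, 100 µM) and methyl jasmonate (MeJA, 100 µM). By the labels, CK1 is the control of SA and 6-BA and of the environmental samples other than NaCl 6 h. CK2 is the control of ABA and MeJA. CK3 is the control of the metals and of NaCl 6 h. The deposited fold ratios hold no comparison for the organs, which were taken against CK1, as in the choice of the gene. PEG 1 h was left out, since all 97 rows of its Ct column were equal to those of H2O2 6 h. The environmental class therefore has 9 samples, the metals 10 and the phytohormones 8.

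The Ct of a gene counts the PCR cycles run before its product is seen, and each cycle less means roughly a doubling of the starting cDNA. The level of a gene, –ΔCT, was minus the Ct difference from the reference BdGAPD, the glyceraldehyde-3-phosphate dehydrogenase gene. The change, –ΔΔCT, was the level minus that of the control, on the log2 scale. A value of -1 or less stands for at most 0.5-fold and a value of 1 or more for at least 2-fold. Each condition has 1 Ct per gene, so no spread between plants is known. From 8 pairs of genes with the same primers, the error of a single well was an SD of 0.97 in –ΔΔCT, 0.78 without BdbZIP50 and BdbZIP51, and 0.86 without the samples cold 1 h and heat 1 h. This yardstick holds neither the error of the BdGAPD Ct nor the variation between plants.

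Transcripts of BdbZIP88 were detected in every sample, with Ct from 22.86 in CK3 to 30.77 in spikelet and a median of 28.44 over the 34 samples. No sample reached a Ct of 35, against 34 of the 96 genes that did so in at least 1 used sample. In the controls, BdbZIP88 had Cts of 27.64 (CK1), 26.88 (CK2) and 22.86 (CK3), beside BdGAPD Cts of 17.90, 15.72 and 20.08. The levels (–ΔCT) were -9.74 in CK1, -11.16 in CK2 and -2.78 in CK3. CK3 was thus 6.96 above CK1 in level, where the median of the 96 genes was 2.59 above. The part of this difference from the BdbZIP88 well alone was 4.78 cycles, and the rest came with the BdGAPD Ct, which was 2.18 cycles later in CK3 than in CK1.

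**Figure D1:**
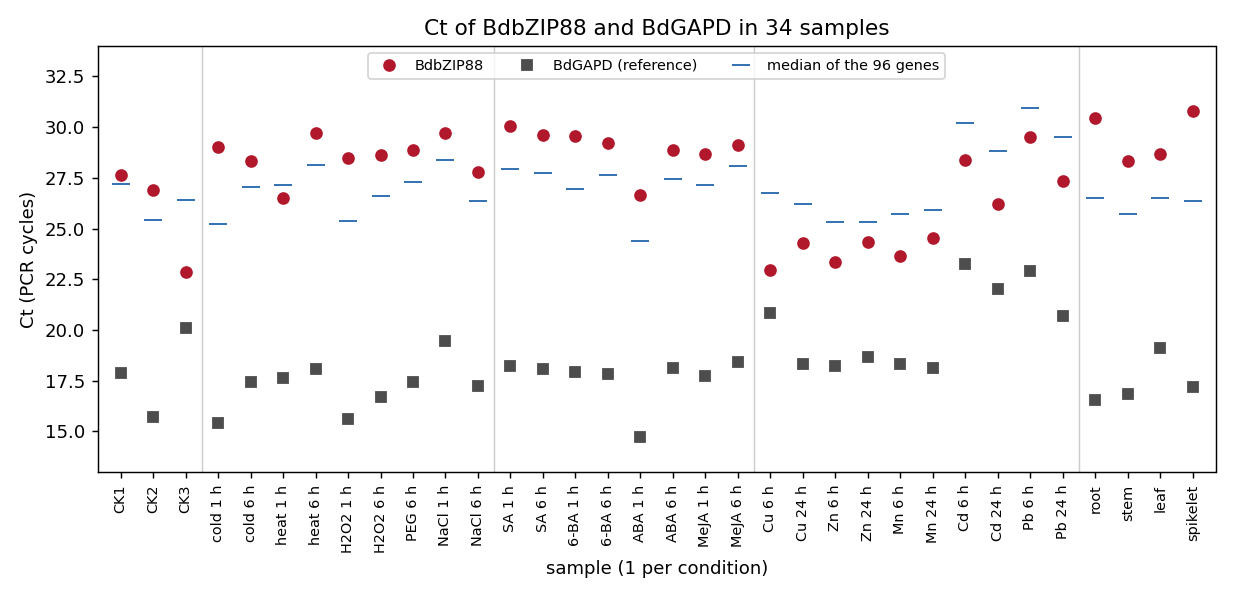
Ct in PCR cycles (vertical axis) of BdbZIP88 (red), of the reference BdGAPD (grey squares) and the median of the 96 BdbZIP genes (blue bars) in each of 34 samples, 1 per condition. BdbZIP88 was detected earlier than the median gene in CK3, in heat 1 h and in the 10 heavy metal samples, and later in the other samples, with the latest Ct of 30.77 in spikelet.

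The level of BdbZIP88 divided the samples in a single way. CK3 and the 10 heavy metal samples ran from -6.63 to -2.11 in –ΔCT, and the other 23 samples from -13.92 to -8.88, with no overlap. The medians were -5.32 and -11.45. All of these 11 samples lay above all 23 others for 9 of the 96 genes (9.38%), namely BdbZIP10, BdbZIP12, BdbZIP23, BdbZIP56, BdbZIP57, BdbZIP59, BdbZIP72, BdbZIP88 and BdbZIP90. With levels taken relative to the median gene of each sample in place of BdGAPD, BdbZIP88 ran from 1.02 to 3.80 in these samples and from -4.40 to 0.62 in the others, and 4 genes had no overlap. The Ct of BdbZIP88 itself did overlap, from 22.86 to 29.49 in the 11 samples and from 26.51 to 30.77 in the 23 others. BdGAPD was detected at 18.14 to 23.24 in the 11 samples and at 14.73 to 19.46 in the others. Its part in the difference was not tested.

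At the low end of the order of levels stood root at -13.92, cold 1 h at -13.63, spikelet at -13.57 and H2O2 1 h at -12.90. The first of these and spikelet differed by 0.35, less than the error of a single well. At the high end stood Cu 6 h at -2.11, CK3 at -2.78 and Cd 24 h at -4.19. Cu 6 h and CK3 differed by 0.67, again less than the error of a well. Among the 23 samples the highest levels were -8.88 in heat 1 h, -9.54 in leaf and -9.74 in CK1.

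**Figure D2:**
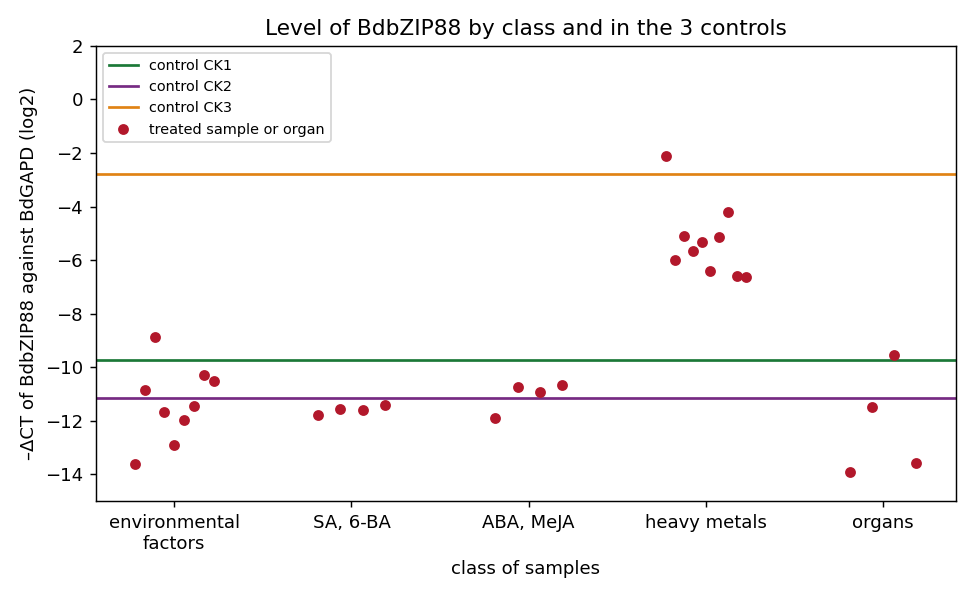
Level of BdbZIP88, –ΔCT against BdGAPD on the log2 scale (vertical axis), for each treated sample or organ (points) by class, with the 3 controls as lines. The heavy metal samples sit between -6.63 and -2.11, above CK1 (-9.74) and CK2 (-11.16), and all but Cu 6 h lie below CK3 (-2.78).

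In the organs, BdbZIP88 was highest in leaf relative to BdGAPD and lowest in root and spikelet. For root, stem, leaf and spikelet in turn, the Cts were 30.46, 28.34, 28.65 and 30.77, beside BdGAPD Cts of 16.54, 16.85, 19.11 and 17.20. The levels (–ΔCT) were -13.92, -11.49, -9.54 and -13.57 in the same order. Leaf lay 4.38 above root and 4.03 above spikelet, where the medians of the 96 genes were 2.93 and 1.96. Stem lay 2.43 above root and 2.08 above spikelet, against medians of 1.21 and 0.22. Leaf lay 1.95 above stem, close to the median of 1.73. Relative to the median gene, leaf lay 0.48 above stem, less than the error of a well, and by Ct alone stem was the earlier, at 28.34 against 28.65. These differences between organs use no control. Each organ is a bulk sample, in which fewer cells with the transcript and less transcript per cell cannot be told apart.

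Against CK1, the –ΔΔCT of BdbZIP88 was -4.18 in root and -3.83 in spikelet, the lowest of the 96 genes in both, as the choice of the gene required. In root 46.9% of the genes were at most 0.5-fold and in spikelet 28.1%. The next lowest gene was BdbZIP37 at -3.64 in root, 0.54 from BdbZIP88, and BdbZIP61 at -2.91 in spikelet, 0.92 from it. The gap in root was below each estimate of the error of a single well. The gap in spikelet was near them (0.97, 0.86 and 0.78). Such a gap holds the error of both genes, which is larger than that of a single well, so neither gap stands clear of it. In stem, where 9.38% of the genes were at most 0.5-fold, BdbZIP88 stood at -1.75 and ranked 3 from the lowest. In leaf it was at 0.20, within 2-fold of CK1, while the median gene was at 1.74 and 9.38% were at most 0.5-fold. There BdbZIP88 ranked 16 from the lowest.

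The lowest rank depended on the control. With CK2 in place of CK1, BdbZIP88 was at -2.76 in root and -2.41 in spikelet and ranked 5 and 2 from the lowest, and BdbZIP13 was the lowest gene in both organs. With CK3, or with the mean of the 3 controls, BdbZIP88 was again the lowest gene in root and spikelet. Relative to the median gene in place of BdGAPD, the values were -3.54 and -3.98, and both kept rank 1. All of these ranks rest on the root and spikelet values that chose the gene, so they are no independent check. The ranks with CK3 and with the mean also carry the level of CK3, 6.96 above CK1 for BdbZIP88 and 2.59 for the median gene.

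The organ values carry a limit of identity. The plate well of BdbZIP88 was found through the stress values, where all 28 values of the gene were equal to those of 1 well. In the study's organ table, the organ values of this well stand under the name BdbZIP96. Of the 96 genes in that table, 93 carry the organ values of some well (within 0.1), and 1 carries those of its own well. Genes with the same primers give a check that does not use the names of the organ table, though it uses the wells found through the stress values. By well, the Cts of the 8 same-primer pairs differed by a median of 0.44 cycles in the organs, against 0.495 in CK1. In the deposited normalized table, whose organ rows follow the order of the organ table, they differed by a median of 1.89 on the log2 scale. The values here follow the wells. The well of BdbZIP96 itself gave root -0.77, stem 0.48, leaf 2.28 and spikelet 0.28.

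Under heavy metals the direction of BdbZIP88 turned with the control. Against CK3, the control of the labels, the mean –ΔΔCT was -2.54 over the 10 samples, with 9 of 10 at most 0.5-fold, and 47.0% of all gene and sample values in this class were past that threshold. These low values were used to choose the gene, so nothing is read from the count. Against CK1 the mean was 4.42 and against CK2 it was 5.84, and all 10 samples were at least 2-fold higher with either. The median over the 96 genes moved from -0.90 against CK3 to 1.84 against CK1 and 1.60 against CK2. CK3 is a single sample. Over the 96 genes, the Cts of the metal samples had r of 0.90 to 0.97 with CK3, 0.80 to 0.85 with CK1 and 0.83 to 0.88 with CK2.

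Copper and zinc, which plants need in trace amounts, gave unlike values at 6 h relative to BdGAPD. Cu 6 h had a –ΔΔCT of 0.67 against CK3, with a Ct of 22.97 beside 22.86 in CK3, and Cu 24 h had -3.20. Zn was at -2.33 at 6 h and -2.88 at 24 h, and Mn, the other micronutrient, at -2.54 and -3.63. The Ct of BdbZIP88 in Zn 6 h was 23.34, close to that in Cu 6 h, while BdGAPD was at 20.86 in Cu 6 h and 18.23 in Zn 6 h. Without a reference gene, Cu 6 h was at -0.11 and Zn 6 h at -0.48 against CK3. Relative to the median gene, the levels were 3.80 in Cu 6 h, 1.995 in Zn 6 h and 3.56 in CK3. Cu 6 h alone among the metal samples stayed within 2-fold of CK3 relative to BdGAPD. Without it, the mean over the other 9 was -2.89.

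Cadmium and lead are toxic metals with no known use in the plant. Cd was at -2.37 at 6 h and -1.41 at 24 h against CK3, and Pb at -3.82 and -3.85. The Cts of BdbZIP88 were later under these metals, at 28.39 and 26.23 for Cd and 29.49 and 27.33 for Pb, against 22.97 to 24.55 for Cu, Zn and Mn. BdGAPD was also late in Cd and Pb, at 20.70 to 23.24, and the levels of Cd (-5.15 and -4.19) and Pb (-6.60 and -6.63) lay near the range of Cu 24 h, Zn and Mn (-6.41 to -5.11), with Cd 24 h above it and both Pb samples below. In the order of mean –ΔΔCT under metals, BdbZIP88 ranked 3 from the lowest, between BdbZIP64 at -2.99 and BdbZIP92 at -2.50. The gap to BdbZIP92 was far below the error of a well.

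**Figure D3:**
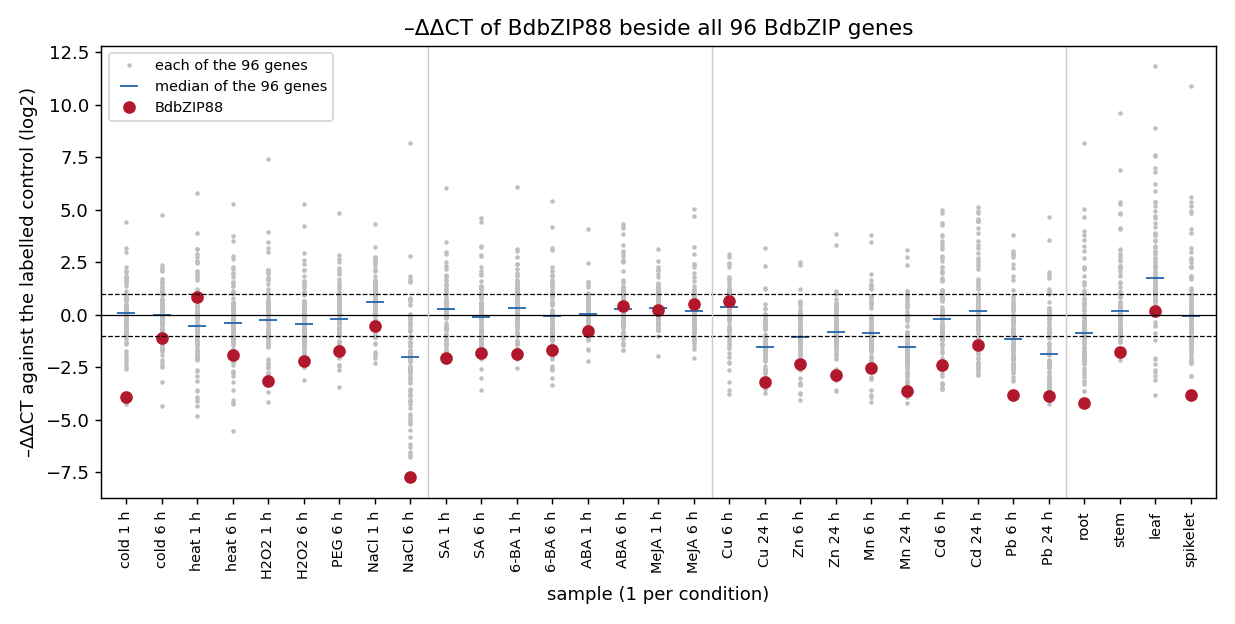
–ΔΔCT on the log2 scale (vertical axis) in 31 treated samples and organs, against the control given by the labels, or CK1 for the organs. BdbZIP88 is red, each of the 96 BdbZIP genes is grey and their median is a blue bar, with dashed lines at 0.5-fold and 2-fold. BdbZIP88 is at or below the lower line in 23 of 31 samples and above the upper line in none, and is the lowest gene in NaCl 6 h, root and spikelet.

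Under environmental factors, 7 of 9 samples were at most 0.5-fold, while 30.9% of all gene and sample values in this class were. Of these 9 samples, 8 were taken against CK1 and NaCl 6 h against CK3, the controls with which the gene was chosen, so the values are not independent of the choice. Against CK2, an alternative added after the values were seen, 2 of 9 were at most 0.5-fold (13.1% of all values), cold 1 h at -2.47 and H2O2 1 h at -1.74, and the others ran from -0.79 to 2.28 with a mean over the 9 of -0.19. Of the 96 genes, 11 reached 7 or more of the 9, BdbZIP88 included. Its mean –ΔΔCT was -2.38, the third lowest, where the median of the 96 means was -0.20. No sample was at least 2-fold higher.

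H2O2 and PEG gave low values against CK1 at each time measured. H2O2, a reactive oxygen species that also acts as a signal in plants, gave Cts of 28.49 at 1 h and 28.63 at 6 h and –ΔΔCT of -3.16 and -2.21. The ranks from the lowest were 3 and 5. PEG, which withdraws water as drought does, gave a Ct of 28.89 at 6 h and a –ΔΔCT of -1.71, with rank 12. Against CK2 the same samples were at -1.74, -0.79 and -0.29, and without a reference gene at -0.85, -0.99 and -1.25, so that some were within the error of a single well.

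Salt gave the lowest value of BdbZIP88 in the series, with a size that turned on the control. NaCl 1 h had a Ct of 29.73 and a –ΔΔCT of -0.53 against CK1. NaCl 6 h had an earlier Ct of 27.78, yet a –ΔΔCT of -7.74 against CK3, the lowest of all genes in that sample. Against CK1, the control of NaCl 1 h, NaCl 6 h was at -0.78 and ranked 17 from the lowest, and against CK2 it was at 0.64. The median gene in NaCl 6 h was at -2.02 against CK3 and 0.23 against CK1. Over the 96 genes, the Ct of NaCl 6 h had r of 0.94 with CK1, 0.97 with CK2 and 0.86 with CK3. With CK1 for NaCl 6 h, the mean of the environmental samples was -1.61.

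Cold and heat gave opposite orders in time. Cold 1 h had a Ct of 29.04 and a –ΔΔCT of -3.89, and cold 6 h had 28.32 and -1.12. Heat 1 h had a Ct of 26.51 and a –ΔΔCT of 0.86, the highest of any environmental sample, and heat 6 h had 29.72 and -1.92.

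Both 1 h samples carry a sign of unequal wells. The Ct of BdbZIP88 was 2.53 cycles later in cold 1 h than in heat 1 h, while the median gene was 3.16 cycles earlier and BdGAPD 2.22 cycles earlier. BdbZIP88 was 1 of 12 genes that were later in cold 1 h, and the other 84 were earlier. Of the 8 pairs of genes with the same primers, 7 had 1 gene among the 12 and the other outside. Within these 7 pairs the gene among the 12 was 0.89 to 3.76 cycles later than its partner in cold 1 h and 0.42 to 3.30 cycles earlier in heat 1 h. In the remaining pair the differences were 0.27 and 0.28. BdbZIP88 has no partner with its primers, so its own values in these samples could not be compared in that way. Without cold 1 h and heat 1 h, an alternative added after the values were seen, the environmental mean was -2.63. The part of these wells in the cold and heat values was not tested.

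**Figure D4:**
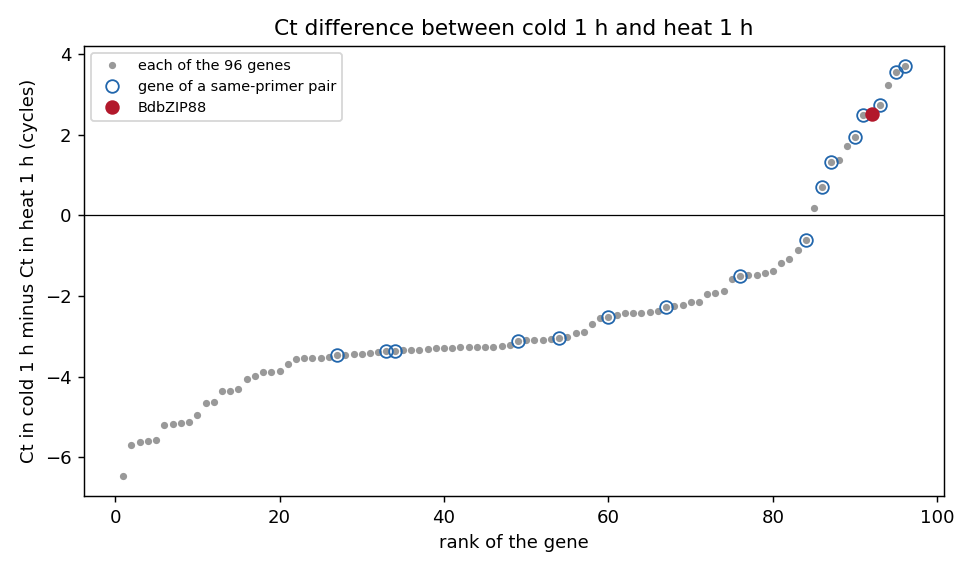
Ct in cold 1 h minus Ct in heat 1 h, in PCR cycles (vertical axis), for the 96 BdbZIP genes in rank order (horizontal axis), with BdbZIP88 in red and genes of same-primer pairs ringed in blue. BdbZIP88, at 2.53, is 1 of 12 genes above 0, while the median gene is at -3.16.

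Phytohormones divided by the control of the labels. SA, a hormone of defence, gave Cts of 30.03 at 1 h and 29.63 at 6 h and –ΔΔCT of -2.05 and -1.83 against CK1. The cytokinin 6-BA gave Cts of 29.55 and 29.21 and –ΔΔCT of -1.87 and -1.65. All 4 samples were at most 0.5-fold, where 21.1% of all values in these samples were, and 7 of the 96 genes did so in all 4. The 4 values lay within 0.40 of each other, less than the error of a well, and their mean was -1.85. The mean ranked 5 from the lowest, and the median of the 96 means was 0.07. CK1 is also the control with which the gene was chosen in root and spikelet, so these values and ranks are not independent of the choice.

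ABA, the hormone of water stress, and MeJA, a hormone of wounding and defence, left BdbZIP88 within 2-fold of CK2. ABA gave Cts of 26.64 at 1 h and 28.85 at 6 h and –ΔΔCT of -0.75 and 0.44. MeJA gave Cts of 28.65 and 29.10 and –ΔΔCT of 0.22 and 0.50. None of the 4 was at most 0.5-fold, beside 7.03% of all values in these samples. The mean was 0.10, near the median of 0.20 over the 96 genes. The early Ct of BdbZIP88 in ABA 1 h went with the earliest BdGAPD Ct of the series, 14.73, and the earliest median Ct of the 96 genes, 24.38.

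The levels (–ΔCT) under the 4 hormones were closer than their –ΔΔCT. They ran from -11.79 to -11.39 for SA and 6-BA and from -11.91 to -10.66 for ABA and MeJA, and the ranges overlap. CK2 was 1.42 below CK1 in level, so that ABA and MeJA were at a mean of -1.32 against CK1, and SA and 6-BA at -0.43 against CK2. A difference between the hormone pairs therefore cannot be told apart from the difference between their controls.

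The environmental mean of -2.38 was 1.51 below the phytohormone mean of -0.87, with a mix of controls on both sides. The difference was not significant in an exact two-sided permutation test over the 9 and 8 samples (p = 0.125, adjusted p = 0.249 over the 2 tests made). With CK1 for NaCl 6 h it was -0.73 (exact permutation adjusted p = 0.519). With the mean of the controls for every sample it was -0.02 (exact permutation adjusted p = 0.967). Of the 17 samples, 12 share CK1 with the organs from which the gene was chosen, 4 were set against CK2 and 1 against CK3. The test treats the 17 samples as exchangeable, while samples of the same treatment belong together. It therefore cannot tell a difference of class from one of control or of the choice.

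Time within a treatment needs no control. From 1 h to 6 h the level of BdbZIP88 changed by 2.77 under cold, -2.78 under heat, 0.95 under H2O2 and -0.25 under NaCl. Under the hormones it changed by 0.22 for SA, 0.22 for 6-BA, 1.19 for ABA and 0.28 for MeJA. The level was higher at 6 h in 6 of 8 treatments, with a mean difference of 0.33 ± 1.56 (SD, n = 8 treatments). An exact two-sided sign-flip permutation test found no significant change (p = 0.555, adjusted p = 0.555), where the smallest p that 8 treatments allow is 0.00781. Cold and heat gave the 2 differences largest in size, in opposite directions. Both rest on the cold 1 h and heat 1 h wells that carry the sign of unequal wells given above, and the part of these wells was not tested. Without cold and heat the mean was 0.44 over the other 6 (exact permutation adjusted p = 0.125).

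Under the metals the level changed from 6 h to 24 h by -3.87 for Cu, -0.55 for Zn, -1.09 for Mn, 0.96 for Cd and -0.03 for Pb. Relative to BdGAPD it was higher at 24 h for Cd alone. The mean was -0.92 ± 1.82 (SD, n = 5 metals), with no test, and -0.18 without Cu. The median gene changed by -1.84 under Cu, and relative to the median Ct of the 96 genes BdbZIP88 fell by 1.90. Relative to that median Ct, BdbZIP88 was higher at 24 h for both Cd (0.74) and Pb (0.735).

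Over all 31 comparisons, with the controls of the labels and CK1 for the organs, BdbZIP88 was at most 0.5-fold in 23, within 2-fold in 8 and at least 2-fold in none. Values of at least 2-fold made up 20.0% of all gene and sample values, with a median of 4.5 samples a gene, and 14 of the 96 genes had none. At most 0.5-fold had a median of 9.0 samples a gene, and 2 genes, BdbZIP88 included, reached 23 or more. The count contains the root, spikelet and metal values that chose the gene. With CK1 as the control of every sample, 15 of 31 were at most 0.5-fold.

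The genes with the profile most like that of BdbZIP88 were found by Pearson's r of the level relative to the median gene, over the 34 samples. They were BdbZIP23 (r = 0.83), BdbZIP72 (0.81), BdbZIP56 (0.81), BdbZIP59 (0.78) and BdbZIP12 (0.74). The least alike were BdbZIP74 (r = -0.89) and BdbZIP17 (-0.87). These r are a description over conditions, which are not replicates of each other. All 5 most alike genes belong to the 9 genes without overlap between CK3 with the metals and the other samples. Within the 23 other samples the same 5 had r of 0.13 to 0.39, and within CK3 and the metals -0.37 to 0.31. Over 21 samples, without cold 1 h and heat 1 h as well, they had r of 0.28 to 0.60, with BdbZIP23 the highest.

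BdbZIP23 was also low in the comparisons that chose BdbZIP88. It was picked by its r over samples that include these, so its values there are a description alone. Its –ΔΔCT was -3.17 in root, -2.04 in spikelet and a mean of -2.21 under the metals, and its level was 6.24 higher in CK3 than in CK1. BdbZIP12 was at -3.61 in root and -2.31 in spikelet, yet at a mean of -0.001 under the metals. BdbZIP17 ran the other way, at 3.57 in root, 4.84 in spikelet, a mean of 2.65 under the metals and 6.77 lower in CK3 than in CK1.

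**Figure D5:**
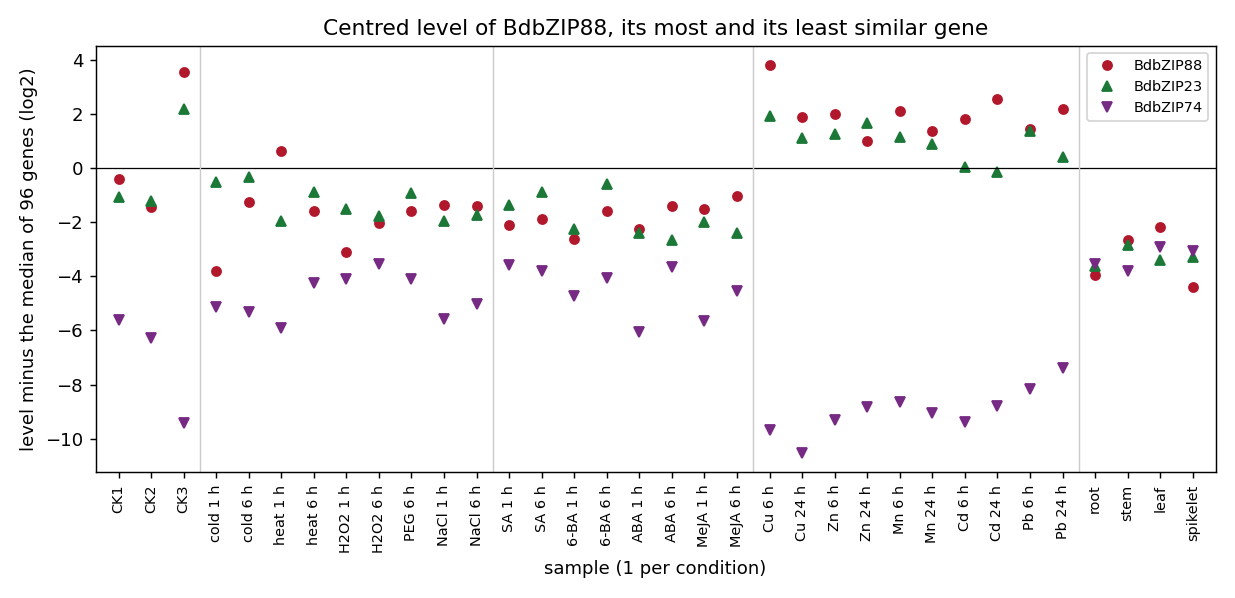
Level minus the median of the 96 genes, on the log2 scale (vertical axis), in each of 34 samples for BdbZIP88 (red), its most similar gene BdbZIP23 (green) and its least similar gene BdbZIP74 (purple). BdbZIP88 and BdbZIP23 are both high in CK3 and most metal samples, where BdbZIP74 is low (r of 0.83 and -0.89 with BdbZIP88 over the 34 samples).

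Within the 23 samples without CK3 and the metals, other genes were most alike, named after their values were seen. They were BdbZIP55 (r = 0.72), BdbZIP41 (0.63), BdbZIP78 (0.62), BdbZIP94 (0.61) and BdbZIP9 (0.47). All 5 belong to the 12 genes that were later in cold 1 h than in heat 1 h. Without those 2 samples their r with BdbZIP88 over 21 samples was 0.17 to 0.53, and the most alike genes were BdbZIP13 (r = 0.72), BdbZIP73 (0.70), BdbZIP83 (0.67), BdbZIP57 (0.66) and BdbZIP65 (0.63). Over the 23 samples these last 5 genes had r of 0.19 to 0.31. Over the 34 samples they ran from -0.76 for BdbZIP73 to 0.69 for BdbZIP57.

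Intron pattern h, in which the bZIP domain is not interrupted in its basic and hinge regions, groups BdbZIP88 with 26 other genes of the family. In root, 7 of these 26 were at most 0.5-fold and 8 at least 2-fold, against 45 and 18 of all 96 genes, with a median –ΔΔCT of -0.30, beside -0.85 over all 96 genes. In spikelet 4 were at most 0.5-fold and 10 at least 2-fold, against 27 and 25 of 96, with a median of 0.73 beside -0.06. Under metals the mean was at most 0.5-fold for 11 and at least 2-fold for 4, against 43 and 8 of 96, with a median of -0.65 beside -0.90. As the choice of the gene favoured, the low values of BdbZIP88 lay far below the median of these genes in root, in spikelet and under metals. Nothing is read from this about the intron pattern.

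The neighbours of BdbZIP88 in the numbering along the chromosomes lay above it in root and spikelet, as the choice of the gene required. BdbZIP87 was at 0.45 in root, 0.94 in spikelet and a mean of -0.61 under metals. Under SA and 6-BA its mean was 1.55, where that of BdbZIP88 was -1.85. For BdbZIP87 this mean joins 2.89 (SA) and 3.03 (6-BA) at 1 h with 0.14 and 0.13 at 6 h. BdbZIP89 was at -2.10 in root, -0.67 in spikelet and -1.29 under metals, and at 0.29 under SA and 6-BA.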

How the data were processed

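Ct values of 96 genes and BdGAPD were read from the table the authors deposited without normalization, 1 Ct per well and sample. The authors' methods give 3 repeats of the qPCR, and how these were combined is not given in the sources used here. The normalized table, a ratio to BdGAPD as deposited, equals 2 to the power of –ΔCT in the controls (at least 92 of 96 wells within 0.1, log2). Its treated values equal the control times the deposited fold changes in 85 to 95 of 96 wells. The deposited fold ratios are the authors' own comparisons, and 16 columns follow 2 to the power of the Ct difference from CK1 or CK2 without BdGAPD. They were used only to check columns and to join wells to genes: all 28 values were equal in 1 well for 94 genes, and 27 for the other 2. PEG 1 h was left out, as its fold values follow its Ct column in 5 of 96 wells, while those of H2O2 6 h do so in 93.

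–ΔΔCT was taken against the control of the labels, and against CK1 for the organs, with thresholds of 2-fold and 0.5-fold. Conditions were the unit of the exact permutation tests, adjusted by Benjamini-Hochberg. A Ct holds no count, so depth is unknown. The gene position, intron pattern and primer pairs come from the study's gene and primer tables. Named genes were BdbZIP88, BdGAPD, the 5 most and 2 least alike, the next genes in root, spikelet and under metals, the neighbours BdbZIP87 and BdbZIP89, and BdbZIP96. The others were named after their values were seen. The gene, lists and tests were chosen with earlier results of these data known. The calculations were tested on simulated Cts. The versions were matplotlib 3.10.9, scipy 1.17.1, pandas 2.3.3, numpy 2.4.6 and Python 3.11.15.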

Additional observations from a re-analysis of the deposited data

How the results depend on the processing

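With the 3 controls averaged, –ΔΔCT was -6.03 (root), -3.60 (stem), -1.65 (leaf) and -5.68 (spikelet), and the means were -3.45 for environmental factors, -3.70 for SA and 6-BA and -3.16 for ABA and MeJA. The metal mean turned to 2.58, and to 4.42 with CK1 and 5.84 with CK2. With CK2, root was -2.76, stem -0.33, leaf 1.62, spikelet -2.41, the environmental mean -0.19 and SA and 6-BA -0.43. With CK3, root was -11.14, stem -8.71, leaf -6.76 and spikelet -10.79. With CK1, ABA and MeJA were at -1.32, and 15 of 31 comparisons were at most 0.5-fold. With the median gene as the reference, leaf was -1.74 and the metals -1.54. Without a reference gene, root was -2.82, stem -0.70, leaf -1.01 and ABA and MeJA -1.43, the difference from 6 h to 24 h under metals was 0.22, the mean from 1 h to 6 h turned to -0.33 (exact permutation adjusted p = 0.625), and the difference of environmental factors and phytohormones turned to 0.24 (exact permutation adjusted p = 0.730). Leaving out each treatment in turn gave -0.024 to 0.77 from 1 h to 6 h (-0.024 without cold), -2.03 to -1.005 for environmental factors minus phytohormones, and -1.39 to -0.18 for the metals from 6 h to 24 h. Adjusted p of the exact permutation tests was 0.125 to 0.969 over time and 0.0643 to 0.967 between classes, so neither passed 0.05 under any setting run. Of the 5 most alike genes, 3 stayed with Spearman's rho, 2 with –ΔΔCT values, 3 with treated seedlings alone, and 0 within the 23 or 21 samples outside CK3 and the metals. Of 85 alternative values, 48 were classed as the same, 31 as moved and 6 as reversed. Classed as the same were values within the error of a single well and counts close to the first count. So were tests with the same sign and on the same side of 0.05, whatever the size of the difference. The settings without cold 1 h and heat 1 h, without Cu 6 h, with CK2 for the environmental samples, with the other control for the hormones, within 23 or 21 samples, and for the count of 31 were chosen after seeing the data. The normalized table was not run as a source, since its treated values are the authors' fold changes and its organ rows follow another order. The comparison with the closest proteins was not run, as protein sequences were not used here. No fit with a replicate block was possible, as each condition has 1 sample, and times were paired within treatments. With 1 Ct per condition, the yardstick covers the wells alone.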
